A study of Mus musculus with 8 samples.

Results

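The 84 genes described here encode the proteins of the cytosolic ribosome, among 26930 genes in the deposited count table of 8 RNA-seq libraries. They were picked by symbol alone: every gene named Rpl or Rps followed by a number, with at most a short suffix, plus Rplp0, Rplp1, Rplp2 and Rpsa. Processed pseudogenes marked -ps and the Rps6k kinases were left out. Of the 84, 51 belong to the large subunit and 33 to the small one. The filter on low counts kept 83; the 84th, Rpl3l, a paralog of Rpl3 used mainly by striated muscle, had 1 and 1 reads in K36M under TGF-beta, 5 and 5 in K36M under Repsox, 0 and 0 in WT under TGF-beta, and 4 and 0 in WT under Repsox.

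The cells were mouse reprogramming intermediates on day 8, fibroblasts on their way to pluripotency under the OKSM factors (Oct4, Klf4, Sox2 and Myc), in a medium called AGi. There were 4 groups of 2 libraries each: K36M cells with TGF-beta1 at 2.5 ng/ml, K36M cells with Repsox at 250 nM, WT cells with TGF-beta1 at 2.5 ng/ml, and WT cells with Repsox at 250 nM. K36M is a histone H3 whose lysine 36 is replaced by methionine, and the sample descriptions also call the WT libraries H3; all 4 groups shared OKSM and AGi. Repsox blocks the kinase of the type I TGF-beta receptor. Each of the 8 libraries had one agent or the other, so what separates the media may come from either. The labels give neither the promoter that drove the histone or the OKSM factors nor whether both libraries in a group stem from independent cultures. The p-values therefore reflect library-to-library spread, which may be technical.

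A ribosome joins a small subunit, which reads the mRNA, to a large subunit, which forms the peptide bond, and nearly every protein is present in 1 copy per particle. Cells therefore make the mRNAs of these proteins in parallel, from strong promoters, and dividing cells spend much of their transcription on them. In mammals transcription of these genes starts within a run of pyrimidines, so that the mRNA opens with the 5' terminal oligopyrimidine (TOP) tract through which mTOR and Larp1 control its translation.

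Many of the start sites, but not all, had a pyrimidine run close by. RefSeq promoters on GRCm38.p6 were matched for 62 of the 84 genes. A run of at least 8 pyrimidines within 20 bases before to 30 after a start was present in 34 of them, 54.8%, against 21.5% of 27025 genes searched in the same way. A run counted here need not include the start itself, as a TOP tract would. The 6 windows below span 15 bases on either side of the start, 5' to 3', and the capitals mark the run. They were picked from both subunits as examples in which the run includes the start. The Rpl7a window lies at chr2:26910792-26910821, plus strand, that of Rpl34 at chr3:130730323-130730352, minus strand, and that of Rplp2 at chr7:141447636-141447665, plus strand. The Rps6 window lies at chr4:86857353-86857382, minus strand, that of Rps9 at chr7:3704026-3704055, plus strand, and that of Rps27 at chr3:90213634-90213663, minus strand.
Rpl7a: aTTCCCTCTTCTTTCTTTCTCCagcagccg
Rpl34: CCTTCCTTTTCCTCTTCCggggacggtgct
Rplp2: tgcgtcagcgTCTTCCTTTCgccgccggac
Rps6: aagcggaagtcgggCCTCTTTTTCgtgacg
Rps9: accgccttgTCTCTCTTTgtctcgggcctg
Rps27: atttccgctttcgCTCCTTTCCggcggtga

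Other short words were searched on both strands over the whole 300 bases of each promoter. CCGGAAG, the core bound by ETS factors such as GABP, was found in 40.3% of the 62 genes and in 9.9% of all promoters. CTCTTTC, which overlaps many of the pyrimidine runs, was found in 27.4% and 9.3%, and AAGATGGC, the core for YY1, in 9.7% and 3.2%. CACGTG, the E-box read by MYC and MAX, stood in 9.7% of the family and 8.1% of all promoters. TATAAA was in 11.3% and 15.7%. A word in a promoter is a description and not a bound site.

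The libraries held 10928302 to 15594217 counts. Paired libraries of one group had Spearman correlations of 0.966 to 0.970 across genes. Over the members, the chi-square divided by its degrees of freedom, which is 1 where counting error alone separates a pair of libraries, was 25.1 in K36M under TGF-beta and 33.7 in WT under Repsox. It was at most 4.82 in the other groups. In K36M under TGF-beta the members stood a median log2 of 0.14 higher in library 1 than in library 2, a difference that touches every comparison with that group. In WT under Repsox library 1 was lower than library 2 on the members with a short coding sequence (median log2 -0.13 for 40 genes) and slightly higher on the long ones (0.06 for 42 genes).

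AY036118, an rRNA-derived transcript and the most heavily counted entry of the table, took 3.76% and 2.72% of the counts in K36M under TGF-beta, 2.36% and 2.27% in K36M under Repsox, 1.99% and 1.95% in WT under TGF-beta, and 3.28% and 2.52% in WT under Repsox. The 8 mesenchymal markers summed to 2906 and 3063 CPM in K36M under TGF-beta, 2004 and 1968 in K36M under Repsox, 18325 and 19862 in WT under TGF-beta, and 6023 and 5356 in WT under Repsox. The 8 proliferation markers summed to 2661 and 2688 CPM in K36M under TGF-beta, 2316 and 2327 in K36M under Repsox, 410.4 and 399 in WT under TGF-beta, and 1797 and 1825 in WT under Repsox. In these sums WT cells under TGF-beta had the lowest proliferation markers and the highest mesenchymal ones, and K36M cells under TGF-beta the highest proliferation markers. Single proliferation markers did not all peak there. By mean CPM, Pcna (116 against 90.4 in K36M under TGF-beta) and Mcm5 (230 against 198) were highest in WT under Repsox. Mcm2 (262 against 240) was highest in K36M under Repsox. Single mesenchymal markers did not all follow the sum: in WT under TGF-beta against Repsox Thy1 (log2 -4.27) and Pdgfrb (log2 -0.90) fell, and Thy1 was higher in K36M against WT under TGF-beta (log2 0.38). The 6 epithelial markers summed to 3244 to 3321 CPM in K36M under TGF-beta, 4223 to 4390 in K36M under Repsox, 78.9 to 117 in WT under TGF-beta and 1832 to 1922 in WT under Repsox. The 8 pluripotency markers summed to 755 to 757, 1185 to 1209, 33.5 to 48.6 and 909 to 1076 CPM in the same order. Endothelial markers (4 genes) stayed between 2.01 and 54.3 CPM, and macrophage and blood markers (5 genes, of which 2 passed the filter) between 16.7 and 78.6 CPM. The part of these differences in the results on ribosomal protein genes was not tested. In bulk RNA, fewer cells of a type and less RNA per cell cannot be told apart.

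As a family, ribosomal protein mRNAs were most abundant in K36M cells under TGF-beta and least abundant in WT cells under TGF-beta. Their summed level, in CPM, which are counts scaled to a common library size, was 43522 and 39565 in K36M under TGF-beta, 33482 and 32526 in K36M under Repsox, 30688 and 30348 in WT under TGF-beta, and 34968 and 34952 in WT under Repsox. The 4 groups were separate, with no library of one inside the range of another, and the 2 Repsox groups lay between the 2 TGF-beta groups. As a share of all counts the family took 4.45% and 4.14%, 3.40% and 3.36%, 2.79% and 2.71%, and 3.59% and 3.69% in the same order of groups. These sums carry no test, since 2 libraries against 2 allow no exact permutation p below 0.33.

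**Figure D1:**
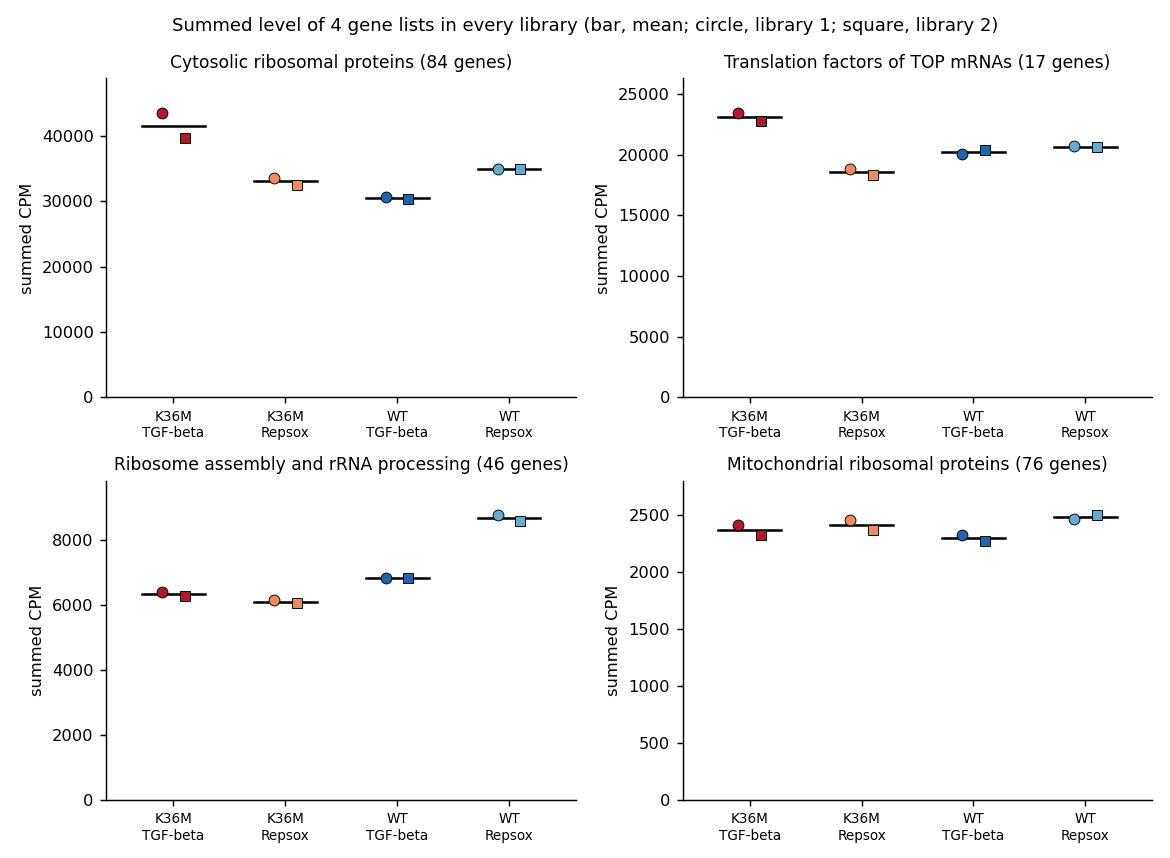
Summed level, in CPM, of 4 gene lists in each of the 8 libraries; the y axes start at 0, points are single libraries and bars are means of 2. The ribosomal protein genes range from 30348 CPM in WT under TGF-beta to 43522 CPM in K36M under TGF-beta, while the mitochondrial ribosomal protein genes stay between 2276 and 2504 CPM.

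Both subunits followed this order. The large subunit summed to 23721 ± 1514 CPM in K36M under TGF-beta, 18687 ± 404 in K36M under Repsox, 17678 ± 133 in WT under TGF-beta and 19947 ± 44.6 in WT under Repsox (SD, n = 2). The small subunit summed to 17823 ± 1283, 14317 ± 271, 12839.5 ± 107 and 15013 ± 33.2 CPM in the same order. Gene by gene, both K36M TGF-beta libraries exceeded the other 6 in 56 of the 83 genes tested, against 14.6% of all tested genes. Both WT TGF-beta libraries lay below the other 6 in 44 of 83, against 29.5% of all tested genes. In K36M under Repsox both libraries lay below the rest in 11 members and above it in 3, where 16.6% and 19.2% of all tested genes did. Both WT Repsox libraries lay above the rest in 1 member and below it in 0, against 9.51% and 7.22% of all tested genes. In the opposite direction, 0 members had both K36M TGF-beta libraries lowest and 3 had both WT TGF-beta libraries highest, against 11.4% and 26.8% of all tested genes.

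Per kilobase of coding sequence the typical member stood at 735 CPM, the median of 76 genes that are not paralogs, with the 10th and 90th percentiles at 325 and 1416. Rplp1, an acidic protein of the stalk, had the highest mean level per kilobase, 2306 CPM. Rps20 followed at 1622 and Rplp0, the scaffold of the stalk, at 1547. The lowest 7 were Rpl24 at 74.8, whose coding length here, the 3153 bases of its gene model, lowers a level per kilobase, and 6 paralogs: Rpl7l1 at 121, Rpl22l1 at 103, Rps4y2 at 93.2, Rpl39l at 41.6, Rpl10l at 2.11 and Rpl3l at 0.119 CPM per kilobase. Of their ubiquitous counterparts, Rpl39 stood at 888 and Rpl22 at 774 CPM per kilobase. The paralog Rps27l stood at 335.

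K36M was set against WT under TGF-beta, the medium in which the genotypes differed most for this family. Of 83 members 71 rose and 2 fell in K36M by edgeR's quasi-likelihood test at a Benjamini-Hochberg adjusted p below 0.05, 85.5% and 2.4%, whereas 36.4% of all 15789 tested genes rose and 33.9% fell, 70.3% in all. Their median log2 fold change was 0.38, beside 0.05 for all tested genes. With library totals as the only scaling the median of all tested genes moved by 0.20 and that of the members to 0.58. The members stood 0.33 above the median of all tested genes. A change of scaling shifts all genes alike, so it cannot test that gap. All 8 proliferation markers rose in this comparison too, and their part in the result was not tested. The change was broad and shallow: the middle 50% of the 82 members other than Rpl10l lay between 0.25 and 0.57, and 3 of them reached 1 in size. In the small subunit 32 of 33 genes rose and 0 fell, and in the large subunit 39 of 50 rose and 2 fell.

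**Figure D2:**
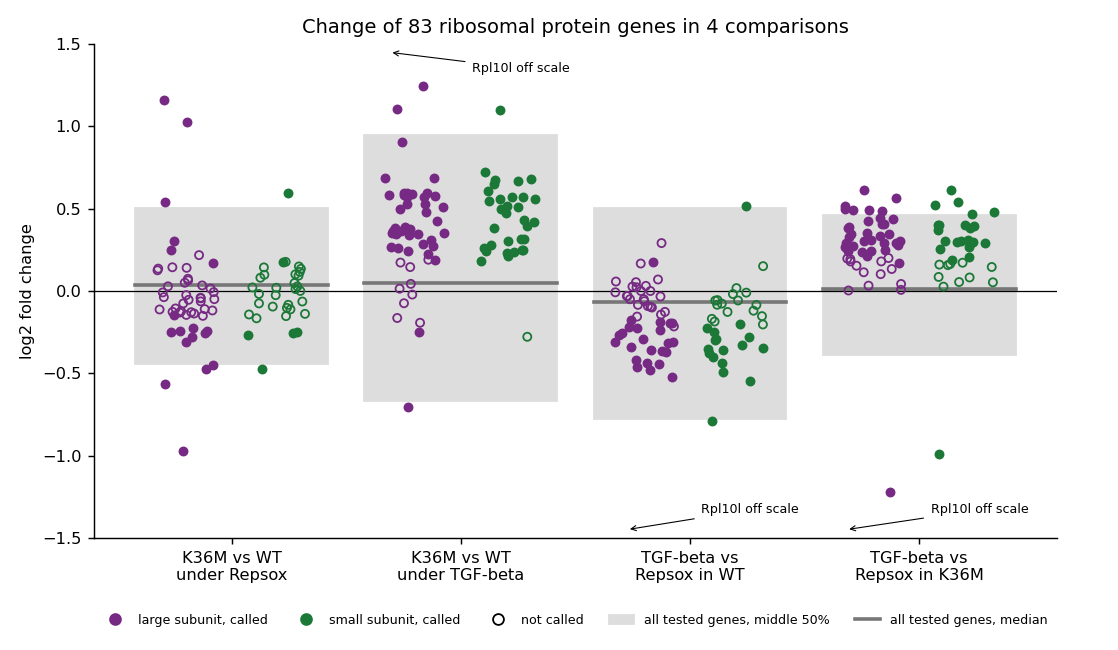
Log2 fold change of the 83 tested ribosomal protein genes in 4 comparisons, large subunit in purple and small subunit in green, with filled points at an adjusted p below 0.05; grey boxes and lines give the middle 50% and the median of all 15789 tested genes. Under TGF-beta 71 genes lie higher in K36M, while in WT 40 lie lower under TGF-beta than under Repsox; Rpl10l is beyond the axis in 3 comparisons.

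The largest increases were in Rpl22, Rpl3, Rps3a and Rpl8. Rpl22, an RNA-binding protein at the surface of the large subunit (chr4:151699851-151708180 on mm9, plus strand), had 463 and 422 CPM in K36M, against 185 and 189 CPM in WT. Every K36M library lay above every WT library, a 2.37-fold difference (log2 1.24 ± 0.07, adjusted p = 1.34e-12). Rpl3, which reaches toward the peptidyl transferase centre (chr15:79908211-79913836, minus strand), had 709 and 645 CPM in K36M, against 325 and 306 CPM in WT. It was 2.15-fold higher (log2 1.10 ± 0.07, adjusted p = 2.77e-12). The 2 near-identical retrocopies of Rpl3, described below, took 12.7% and 14.8% of the joint counts in K36M under TGF-beta. In WT under TGF-beta they took 28.1% and 29.2%. The size of the Rpl3 difference therefore depends on how reads were divided between Rpl3 and these copies. Rps3a, a protein of the small subunit's platform, had 485 and 428 CPM in K36M, against 213 and 212 CPM in WT (log2 1.10 ± 0.07, adjusted p = 7.96e-12). Rpl8, which also lies at the peptidyl transferase centre, had 1474 and 1315 CPM in K36M, against 739.6 and 752 CPM in WT (log2 0.90 ± 0.07, adjusted p = 3.52e-11). In all 4 the groups did not overlap. Here and below, genes named as the largest called changes were picked on these values, so their separation adds no support.

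The stalk of the large subunit, which recruits the GTPase translation factors, split. Rplp0, its base, had 2046 and 1881 CPM in K36M, against 1309.7 and 1315 CPM in WT and rose (log2 0.58 ± 0.06, adjusted p = 7.72e-09), as did Rplp2 (log2 0.51 ± 0.07, adjusted p = 2.17e-06) and Rpl12 (log2 0.38 ± 0.06, adjusted p = 7.08e-06). Rplp1, the dimer partner of Rplp2, had 797 and 741 CPM in K36M, against 941 and 888 CPM in WT and fell (log2 -0.25 ± 0.06, adjusted p = 0.000824). Scaling by library totals alone took Rplp1 to log2 -0.05, adjusted p = 0.421. Rplp1 and Rplp2 thus moved in opposite directions on the scaled libraries, at unequal size on either scaling.

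Rpl5 and Rpl11, which bind 5S rRNA and in its company can hold Mdm2 away from p53, both rose. Rpl5 had 286 and 267 CPM in K36M, against 186 and 181 CPM in WT (log2 0.59 ± 0.07, adjusted p = 2.04e-07), and Rpl11 had 364 and 295 CPM in K36M, against 213 and 196 CPM in WT (log2 0.68 ± 0.09, adjusted p = 2.77e-07). All 14 proteins of the small subunit's head in the list rose, from Rps16 (log2 0.18) to Rps19 (log2 0.72). Rps19, which is mutated in Diamond-Blackfan anaemia in humans, had 517 and 508 CPM in K36M, against 311 and 311 CPM in WT (adjusted p = 8.54e-10). Around the exit of the nascent chain 5 of 8 rose, among them Rpl23a (log2 0.57) and Rpl26 (log2 0.42). Rpl31, Rpl35 and Rpl39 did not pass the test, at log2 0.01, 0.17 and -0.02.

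Rpsa, a small subunit protein once cloned as a laminin receptor, had 1256 and 1141 CPM in K36M, against 766 and 737 CPM in WT (log2 0.67 ± 0.06, adjusted p = 3.04e-09). Rps6, the substrate of the S6 kinases, had 306 and 277 CPM in K36M, against 200.4 and 196 CPM in WT (log2 0.56 ± 0.08, adjusted p = 1.07e-06). Rps27a, made as a fusion with ubiquitin, had 378 and 329 CPM in K36M, against 276 and 266 CPM in WT (log2 0.38 ± 0.07, adjusted p = 7.26e-05). The K36M libraries were above the WT libraries in each of these 3 genes. In all, 10 genes did not pass: Rpl13a, Rpl23, Rpl24, Rpl31, Rpl35, Rpl37a, Rpl39, Rpl39l, Rpl7l1 and Rps27l. Without library 1 of K36M under TGF-beta, 56 members rose; Rps9 (log2 0.17, adjusted p = 0.0692), Rpl10 (0.18, 0.0602) and Rps4x (0.14, 0.114) were then among those that no longer passed.

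Under Repsox the genotypes differed little for this family, and in mixed directions. In K36M 8 members rose and 16 fell by edgeR's quasi-likelihood test, 9.6% and 19.3%, whereas 28.8% of all tested genes rose and 26.9% fell, 55.8% in all. The median log2 fold change was -0.04, beside 0.04 for all tested genes. With library totals as the only scaling 6 rose and 20 fell. All 14 genes of the head of the small subunit were among the 59 that did not pass. Without library 2 of WT under Repsox 20 rose, and without library 1 of K36M under Repsox 5 did.

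Rplp1 had 606 and 601 CPM in K36M, against 899 and 891 CPM in WT and fell 1.48-fold (log2 -0.57 ± 0.06, adjusted p = 4.16e-08). Rps9, a small subunit protein at the mRNA entry, had 553 and 529.5 CPM in K36M, against 782 and 720.2 CPM in WT and fell too (log2 -0.47 ± 0.07, adjusted p = 1.07e-05). Rpl34 rose, with 193 and 190.2 CPM in K36M, against 117 and 147 CPM in WT (log2 0.54 ± 0.09, adjusted p = 3.24e-05). Rpl22 had 309 and 318 CPM in K36M, against 269.6 and 239 CPM in WT and rose (log2 0.30 ± 0.07, adjusted p = 0.00143). These 4 pairs of groups did not overlap. Rpl3 (log2 0.17, adjusted p = 0.0375) and Rps3a (log2 0.18, adjusted p = 0.0425) passed narrowly. Across 12 alternatives Rpl3 missed the threshold with the same sign in 6 and changed sign in 1, and Rps3a missed it in 4. Rpl3 did not pass without either K36M library (adjusted p = 0.178 and 0.0989) or without library 2 of WT (adjusted p = 0.138). It turned to log2 -0.07, adjusted p = 0.339, when the counts of its retrocopies were added to it, and without library 1 of K36M under Repsox Rps3a had log2 0.12, adjusted p = 0.331.

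**Figure D3:**
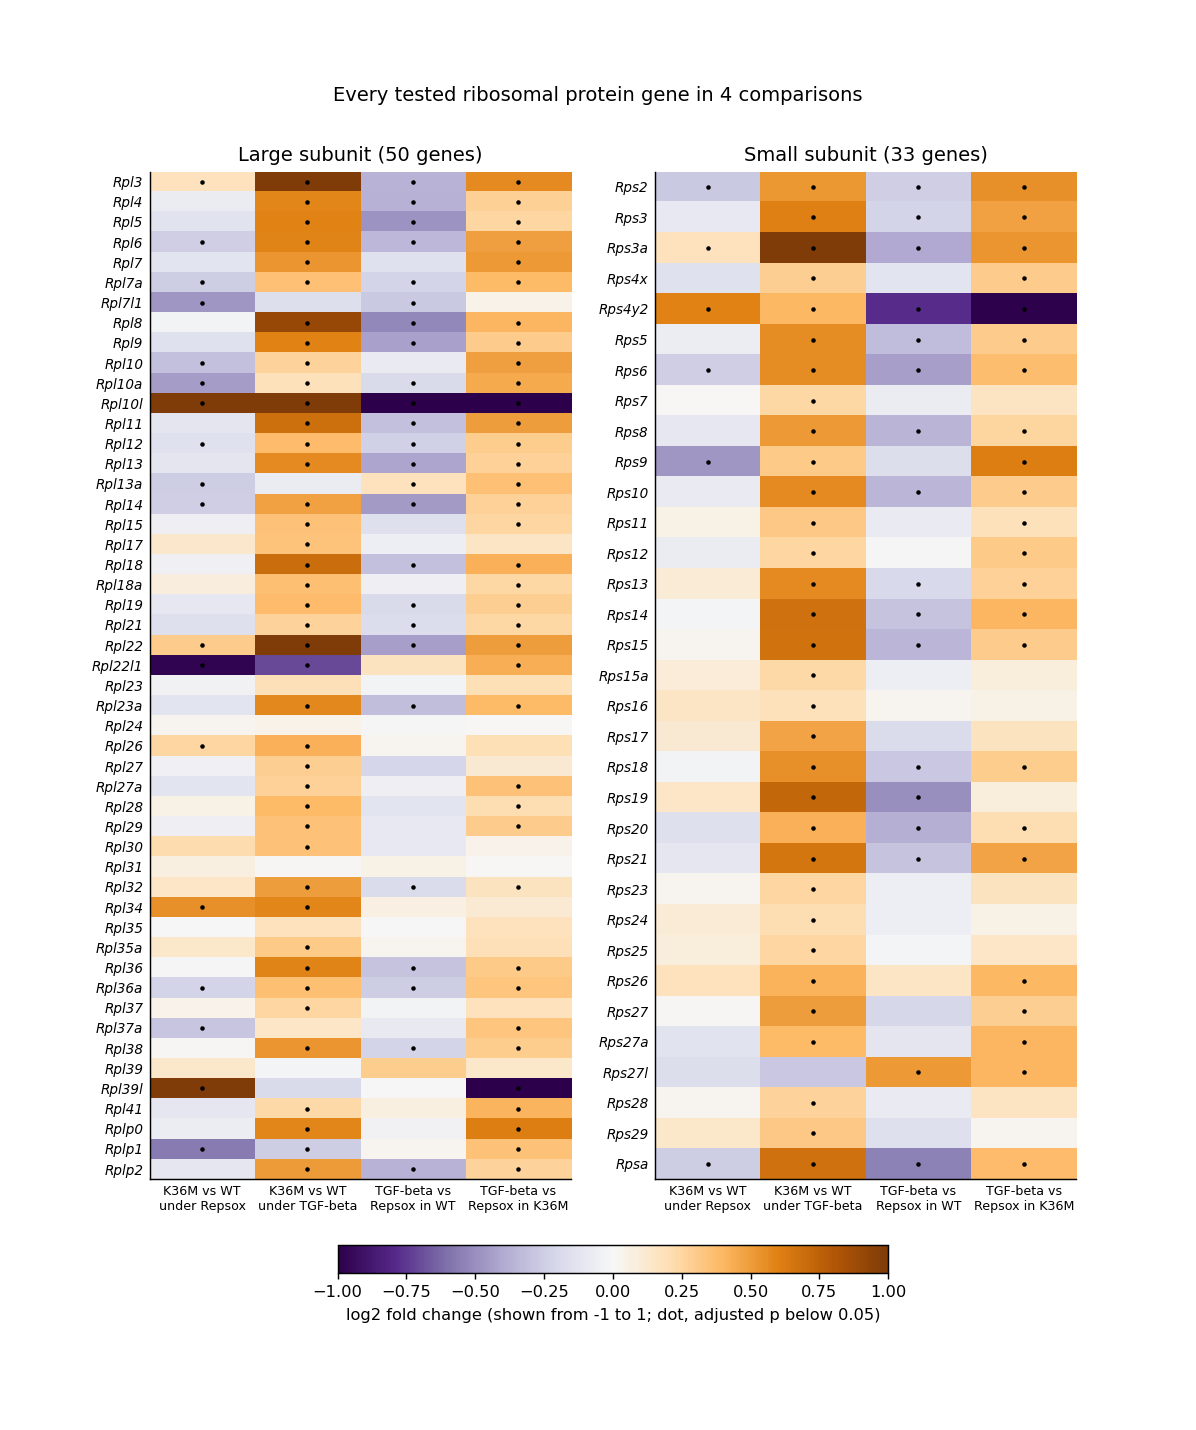
Log2 fold change of each of the 83 tested genes (rows, 50 of the large and 33 of the small subunit) in 4 comparisons (columns), from -1 in purple to 1 in orange, with a dot at an adjusted p below 0.05. The column for K36M against WT under TGF-beta is orange for nearly all rows, with Rpl22l1 and Rplp1 as the 2 called decreases.

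In WT cells TGF-beta was set against Repsox. Here 40 members fell and 2 rose by edgeR's quasi-likelihood test, 48.2% and 2.4%, whereas 33.4% of all tested genes fell and 29.0% rose, 62.4% in all. The median log2 fold change was -0.19, beside -0.07 for all tested genes, and 4 of the 82 members other than Rpl10l reached 0.5 in size. The count of decreases depends on the scaling: with library totals alone it was 71, and the median of all tested genes moved by -0.21 with it. The members stood 0.12 below the median of all tested genes, a gap that a change of scaling cannot test, since it shifts all genes alike.

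Rpsa fell most among the ubiquitous members, with 766 and 737 CPM in WT under TGF-beta, against 1151 and 1043 CPM in WT under Repsox (log2 -0.55 ± 0.06, adjusted p = 1.08e-07). Rpl8 had 739.6 and 752 CPM in WT under TGF-beta, against 1126 and 1018 CPM in WT under Repsox (log2 -0.52 ± 0.07, adjusted p = 3.24e-07), and Rps19 had 311 and 311 CPM in WT under TGF-beta, against 449 and 426 CPM in WT under Repsox (log2 -0.49 ± 0.06, adjusted p = 4.52e-07). The TGF-beta libraries lay below the Repsox libraries in all 3, and all 8 proliferation markers fell in the same comparison; their part in the result was not tested. Rpl5 (log2 -0.48), Rpl22 (-0.44), Rps6 (-0.44), Rps3a (-0.40), Rpl3 (-0.37), Rplp2 (-0.36) and Rps2 (-0.25) fell as well. Rplp0 at log2 -0.03 and Rplp1 at 0.03 did not pass. With library totals alone Rplp0 was called lower, at log2 -0.24 (adjusted p = 0.00035), as was Rplp1, at log2 -0.18 (adjusted p = 0.0102).

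The 2 increases were Rps27l and Rpl13a. Rps27l had 139 and 132 CPM in WT under TGF-beta, against 69.8 and 120.1 CPM in WT under Repsox (log2 0.51 ± 0.14, adjusted p = 0.00364), and its WT Repsox libraries differed from each other by more CPM than the group means did. It no longer passed without library 1 of WT under Repsox (log2 0.17, adjusted p = 0.0881) or by DESeq2 (log2 0.56, adjusted p = 0.0739). Rpl13a, a large subunit protein that can also join a complex silencing inflammatory mRNAs, had 1278 and 1285 CPM in WT under TGF-beta, against 1167 and 1101 CPM in WT under Repsox (log2 0.18 ± 0.06, adjusted p = 0.0125). On library totals alone its log2 fold change was -0.03, adjusted p = 0.616, and without library 2 of WT under Repsox or of WT under TGF-beta it missed the threshold (adjusted p = 0.0526 and 0.0622).

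In K36M cells the same change of medium went the other way. Under TGF-beta 57 members rose and 3 fell by edgeR's quasi-likelihood test, 68.7% and 3.6%, whereas 24.7% of all tested genes rose and 23.6% fell, 48.3% in all. The median log2 fold change was 0.29, beside 0.01 for all tested genes. Library 1 of K36M under TGF-beta weighed on this count, which was 35 without it.

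Rplp0 rose most, with 2046 and 1881 CPM in K36M under TGF-beta, against 1307 and 1264 CPM in K36M under Repsox (log2 0.61 ± 0.06, adjusted p = 9.37e-09). Rps9 had 903 and 749 CPM in K36M under TGF-beta, against 553 and 529.5 CPM in K36M under Repsox (log2 0.61 ± 0.07, adjusted p = 4.01e-07). Rpl3 had 709 and 645 CPM in K36M under TGF-beta, against 463 and 453 CPM in K36M under Repsox (log2 0.56 ± 0.07, adjusted p = 4.04e-07). Rps2, which lies with Rps9 at the mRNA entry, had 1606 and 1482 CPM in K36M under TGF-beta, against 1095 and 1027 CPM in K36M under Repsox (log2 0.54 ± 0.06, adjusted p = 8.65e-08). In each of the 4 both TGF-beta libraries lay above both Repsox libraries. All 4 stalk proteins rose, Rplp1 by log2 0.35, Rpl12 by 0.29 and Rplp2 by 0.26; Rplp2 did not pass without library 1 of K36M under TGF-beta (log2 0.14, adjusted p = 0.202) or without library 2 of K36M under Repsox (log2 0.22, adjusted p = 0.0846). Rpl5 likewise rose (log2 0.25) but had adjusted p = 0.107 and 0.0674 without those same libraries. The 3 decreases were in Rpl39l, Rpl10l and Rps4y2, which are all paralogs or paralog-like copies.

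The interaction tests whether the step from Repsox to TGF-beta differed between K36M and WT. It was positive for 58 members and negative for 1 by edgeR's quasi-likelihood test, 69.9% and 1.2%, whereas it was positive for 28.5% and negative for 22.6% of all tested genes, 51.0% in all. The median was 0.47 on the log2 scale, beside 0.09 for all tested genes. Rpl22 had the largest positive value (log2 0.94 ± 0.10, adjusted p = 1.09e-07) among members with an average log2 CPM of at least 2, followed by Rpl3 (0.93) and Rpl8 (0.93). In these 3 genes TGF-beta went with a higher level in K36M and a lower level in WT. The negative value was that of Rpl39l (log2 -1.22), which did not pass without library 2 of WT under TGF-beta (adjusted p = 0.0632) or library 2 of K36M under TGF-beta (adjusted p = 0.0645). The most common set of calls, in 24 of 83 members, combined 4 results: they were not called between genotypes under Repsox, higher in K36M under TGF-beta, lower under TGF-beta in WT and higher under TGF-beta in K36M. A further 14 were called in the genotype comparison under TGF-beta and in the medium comparison in K36M, both upward, and in neither of the other 2. The share of all tested genes with either set of calls was not counted, so neither set can be called particular to the family.

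The tissue-restricted and variant paralogs departed most from the family pattern. Rpl22l1 (chr3:28704358-28706274, plus strand) is the paralog of Rpl22, whose protein is known in mice to repress Rpl22l1 mRNA. It had 34.1 and 28.8 CPM in K36M under TGF-beta, 25.2 and 21.2 in K36M under Repsox, 51.3 and 51.3 in WT under TGF-beta, and 43.7 and 47.8 in WT under Repsox. All K36M libraries lay below all WT libraries, by 1.96-fold under Repsox (log2 -0.97 ± 0.12, adjusted p = 2.49e-07) and 1.63-fold under TGF-beta (log2 -0.70 ± 0.11, adjusted p = 1.02e-05). Rpl22 ran the other way in both media, as given above. In K36M, Rpl22l1 was higher under TGF-beta than under Repsox (log2 0.44), a call lost without library 1 of K36M under TGF-beta (log2 0.31, adjusted p = 0.113) or library 2 of K36M under Repsox (log2 0.32, adjusted p = 0.0950).

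**Figure D4:**
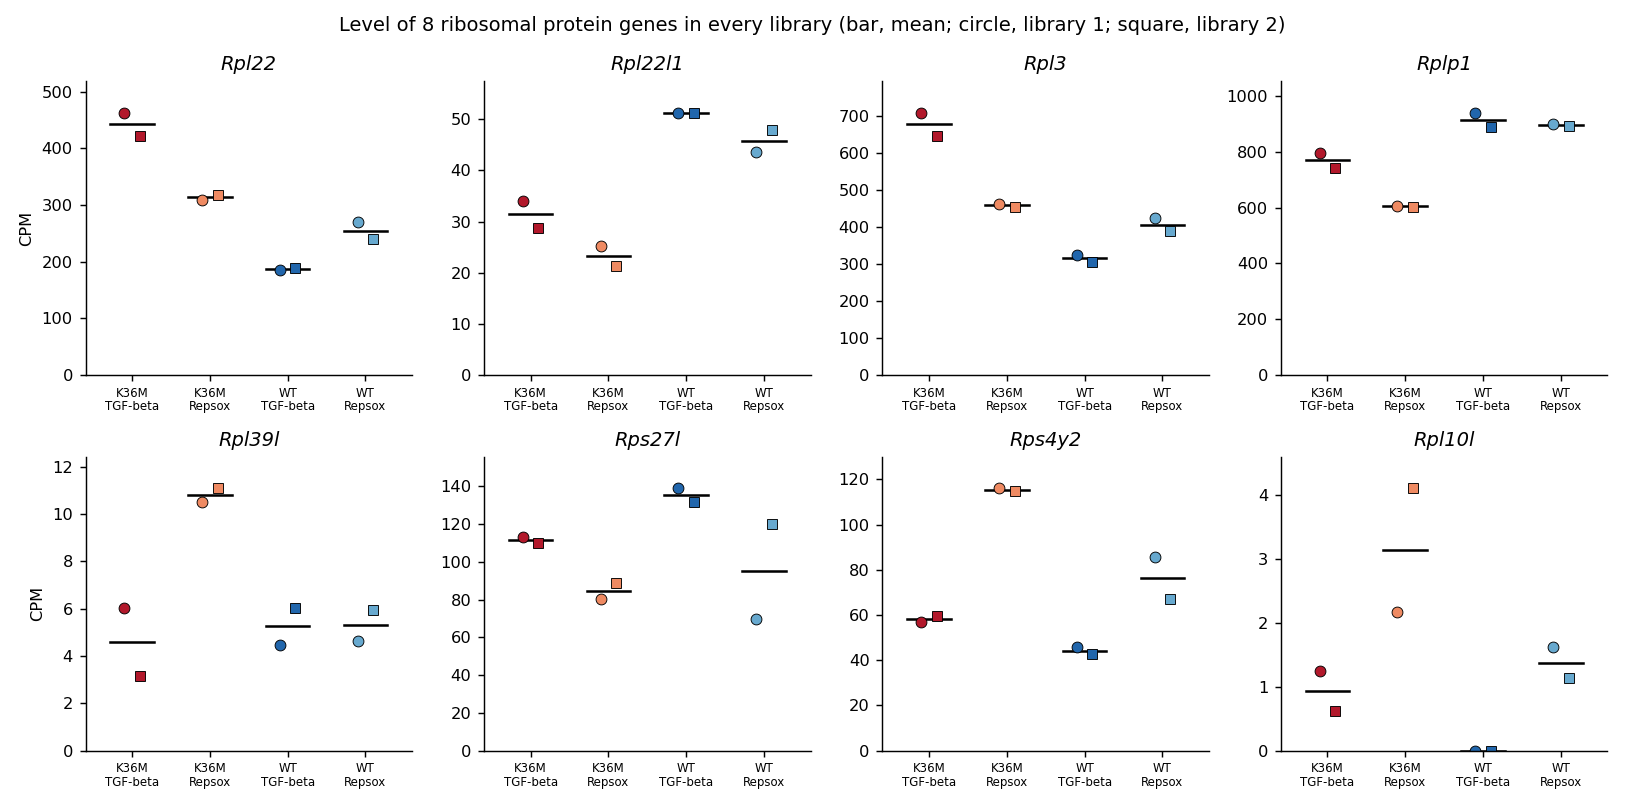
Level in CPM of 8 ribosomal protein genes in each library, with y axes from 0; bars are means of 2 libraries. Rpl22 and Rpl3 peak in K36M under TGF-beta, Rpl22l1 and Rplp1 are lowest in K36M under Repsox, and Rpl10l is at 0 in both WT TGF-beta libraries.

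Rpl39l, a paralog of the exit tunnel protein Rpl39 that is best known from the testis, had 6.02 and 3.15 CPM in K36M under TGF-beta, 10.5 and 11.1 in K36M under Repsox, 4.48 and 6.03 in WT under TGF-beta, and 4.65 and 5.97 in WT under Repsox. Both libraries of K36M under Repsox lay above the other 6. There it was 2.04-fold higher than in WT (log2 1.03 ± 0.25, adjusted p = 0.00137), and in K36M it was 2.33-fold lower under TGF-beta (log2 -1.22 ± 0.26, adjusted p = 0.00046). Rpl39 itself passed in none of the 5 tests; it had 163 and 132 CPM in K36M under TGF-beta, 135 and 134 in K36M under Repsox, 153 and 147 in WT under TGF-beta, and 97.2 and 148 in WT under Repsox. Its libraries of WT under Repsox lay far apart, and without library 2 of that group Rpl39 was called in WT between media (log2 0.62, adjusted p = 9.94e-07), in K36M against WT under Repsox (log2 0.47, adjusted p = 7.86e-05) and by the interaction (log2 -0.49, adjusted p = 0.000839). In WT between media it was also called with DESeq2 size factors (log2 0.34, adjusted p = 0.0286), with no filter on low counts (0.27, 0.0047) and with the replicate block (0.30, 0.0445). The coding sequences of the 2 genes are 156 bases long and differ at 23, in capitals below, with a longest identical stretch of 38 bases, so that a read inside that stretch could come from either. Rpl39 lies on chromosome X and Rpl39l at chr16:10170319-10175004, and both sequences were read from mm9.
Rpl39: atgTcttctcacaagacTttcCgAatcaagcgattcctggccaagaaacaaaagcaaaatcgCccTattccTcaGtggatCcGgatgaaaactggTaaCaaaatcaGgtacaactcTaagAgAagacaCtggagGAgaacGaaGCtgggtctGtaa
Rpl39l: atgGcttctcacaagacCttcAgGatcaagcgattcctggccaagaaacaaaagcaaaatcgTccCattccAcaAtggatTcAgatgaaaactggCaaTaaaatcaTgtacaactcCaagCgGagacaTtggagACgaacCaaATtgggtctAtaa

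Rps27l, a paralog of Rps27 and a known p53 target, had 113 and 109.9 CPM in K36M under TGF-beta, 80.2 and 88.9 in K36M under Repsox, 139 and 132 in WT under TGF-beta, and 69.8 and 120.1 in WT under Repsox. In K36M it was higher under TGF-beta (log2 0.40, adjusted p = 0.0268), but not without library 1 of K36M under Repsox (log2 0.33, adjusted p = 0.153), library 1 of K36M under TGF-beta (0.38, 0.119) or library 2 of that group (0.42, 0.0759), nor by DESeq2 (log2 0.42, adjusted p = 0.228). Between genotypes it did not pass in either medium; under Repsox its log2 fold change of -0.17 became 0.28, adjusted p = 0.0101, without library 2 of WT. Rps27 had 292 and 282 CPM in K36M under TGF-beta, 222 and 249 in K36M under Repsox, 202 and 205 in WT under TGF-beta, and 208 and 260.0 in WT under Repsox, and it rose in K36M under TGF-beta (log2 0.50 ± 0.09, adjusted p = 3.16e-05). Whether the changes of Rps27 and Rps27l differ was not tested.

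Rps4y2 (chr6:148303178-148304120, plus strand), a single-exon gene that RefSeq lists as Rps4l, a transcribed pseudogene, had 57.0 and 59.3 CPM in K36M under TGF-beta, 116 and 115 in K36M under Repsox, 45.7 and 42.8 in WT under TGF-beta, and 85.5 and 67 in WT under Repsox. It was highest in both Repsox groups. It was lower under TGF-beta by 1.99-fold in K36M (log2 -0.99 ± 0.10, adjusted p = 2e-08) and by 1.73-fold in WT (log2 -0.79 ± 0.10, adjusted p = 5.38e-07), and it was higher in K36M in both media (log2 0.60 under Repsox and 0.39 under TGF-beta). Its relative on the X chromosome, Rps4x, had 853 and 710.0 CPM in K36M under TGF-beta, 645 and 627 in K36M under Repsox, 652 and 634 in WT under TGF-beta, and 673 and 732 in WT under Repsox. The coding sequences are 81.2% identical over 784 aligned bases, with no identical stretch above 35 bases.

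Rpl10l (chr12:67384368-67385388, minus strand), an intron-less copy of Rpl10 known from male germ cells, was near the limit of detection. It had 16 and 7 reads in K36M under TGF-beta, 33 and 51 in K36M under Repsox, 0 and 0 in WT under TGF-beta and 24 and 15 in WT under Repsox. WT cells under TGF-beta were thus the group with 0 reads, which allows a level of at most 3 reads over its 2 libraries. Against that bound Rpl10l was 8.08-fold higher in K36M than in WT under TGF-beta (adjusted p = 0.000329). In WT it was 11.8-fold lower under TGF-beta than under Repsox (adjusted p = 6.34e-05). With counting error on both sides, the lower 95% limits were 6.06-fold and 9.17-fold. Its difference between genotypes under Repsox (log2 1.16, adjusted p = 0.041) was lost without library 1 or 2 of WT or library 2 of K36M (adjusted p = 0.0569, 0.177 and 0.430) and by DESeq2 (adjusted p = 0.132). Its decrease in K36M under TGF-beta (adjusted p = 0.00825) was lost without library 2 of K36M under either agent (adjusted p = 0.164 for Repsox and 0.0921 for TGF-beta). Rpl10 had 514 and 459.6 CPM in K36M under TGF-beta, 341 and 353 in K36M under Repsox, 405 and 406 in WT under TGF-beta, and 421 and 439 in WT under Repsox.

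Rpl7l1, a nucleolar relative of Rpl7 with a role in ribosome assembly, had 80.5 and 81.6 CPM in K36M under TGF-beta, 79.3 and 78.1 in K36M under Repsox, 92.7 and 89.0 in WT under TGF-beta, and 108 and 111 in WT under Repsox. WT under Repsox was highest and the other groups lay lower, K36M under Repsox by log2 -0.47 (adjusted p = 3.11e-05). In WT it was lower under TGF-beta (log2 -0.27), although not without library 2 of WT under TGF-beta (log2 -0.24, adjusted p = 0.0656). Rpl7, by contrast, was highest in K36M under TGF-beta: it had 1141 and 1016 CPM in K36M under TGF-beta, 765 and 746 in K36M under Repsox, 749 and 747 in WT under TGF-beta, and 801 and 852 in WT under Repsox.

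Ribosomal protein genes have left many processed copies in the mouse genome, and the table lists 147 of them by a -ps symbol. Together they held 0.671% as many counts as the 84 genes. Of the 147, 40 had 0 counts in every library and 34 passed the filter. Under TGF-beta 6 of the 34 rose and 9 fell in K36M (17.6% and 26.5%, against 36.4% and 33.9% of all genes tested). Under Repsox 1 rose and 10 fell (2.9% and 29.4%, against 28.8% and 26.9%), so the share that fell was near that of all genes. The 3 described next are near-identical to their parents, so the division of reads within each pair is uncertain.

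Rps13-ps1 (chr8:89571619-89572074 on mm9, plus strand, 1 exon, annotated as protein coding) had 0 and 0 reads in K36M under TGF-beta, 0 and 0 in K36M under Repsox, 250 and 275 in WT under TGF-beta and 325 and 412 in WT under Repsox. All reads came from WT libraries. Its parent Rps13, a small subunit protein encoded on chromosome 7, had 4172 and 3394, 3956 and 3188, 2461 and 2896, and 3481 and 3275 reads in the same order. The copy thus held 0% of the joint counts of the pair in every K36M library and 8.54% to 11.2% in the WT libraries. Its 456 bases differ from the Rps13 coding sequence at 2 positions, both in the last 91 bases (366 to 456), which are shown because only a read over one of the capitals can tell the copy from its parent; the longest stretch the pair has in common is 410 bases.
Rps13: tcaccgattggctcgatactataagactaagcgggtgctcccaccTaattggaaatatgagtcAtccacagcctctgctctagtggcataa
Rps13-ps1: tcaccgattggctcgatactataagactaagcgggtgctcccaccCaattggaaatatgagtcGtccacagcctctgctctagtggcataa

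Rpl34-ps1 (chr6:71074583-71074994, plus strand) showed the same division. It had 2 and 0 reads in K36M under TGF-beta, 0 and 2 in K36M under Repsox, 138 and 170 in WT under TGF-beta and 127 and 191 in WT under Repsox. It differs from the Rpl34 coding sequence at 2 of 354 bases and held 6.82% to 8.93% of the joint counts in WT but at most 0.084% in K36M. Rpl34 itself was higher in K36M in both media, by log2 0.54 and, under TGF-beta, 0.58. How the authors' counting divided reads between such copies and their parents was not given in the sources used here.

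Rpl3-ps1 (chrX:12779697-12780906, plus strand), which matches the Rpl3 coding sequence at 99.8% of 1209 bases, was the most heavily counted copy. It had 100.1 and 111 CPM in K36M under TGF-beta, 80.4 and 70.8 in K36M under Repsox, 127 and 126 in WT under TGF-beta and 152 and 161 in WT under Repsox. The 2 retrocopies of Rpl3 took 12.7% to 15.1% of the joint counts in K36M and 26.4% to 29.3% in WT. Rpl3-ps1 fell in K36M under Repsox (log2 -1.05 ± 0.09, adjusted p = 7.74e-10) and under TGF-beta (log2 -0.27 ± 0.09, adjusted p = 0.00866), while Rpl3 rose.

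**Figure D5:**
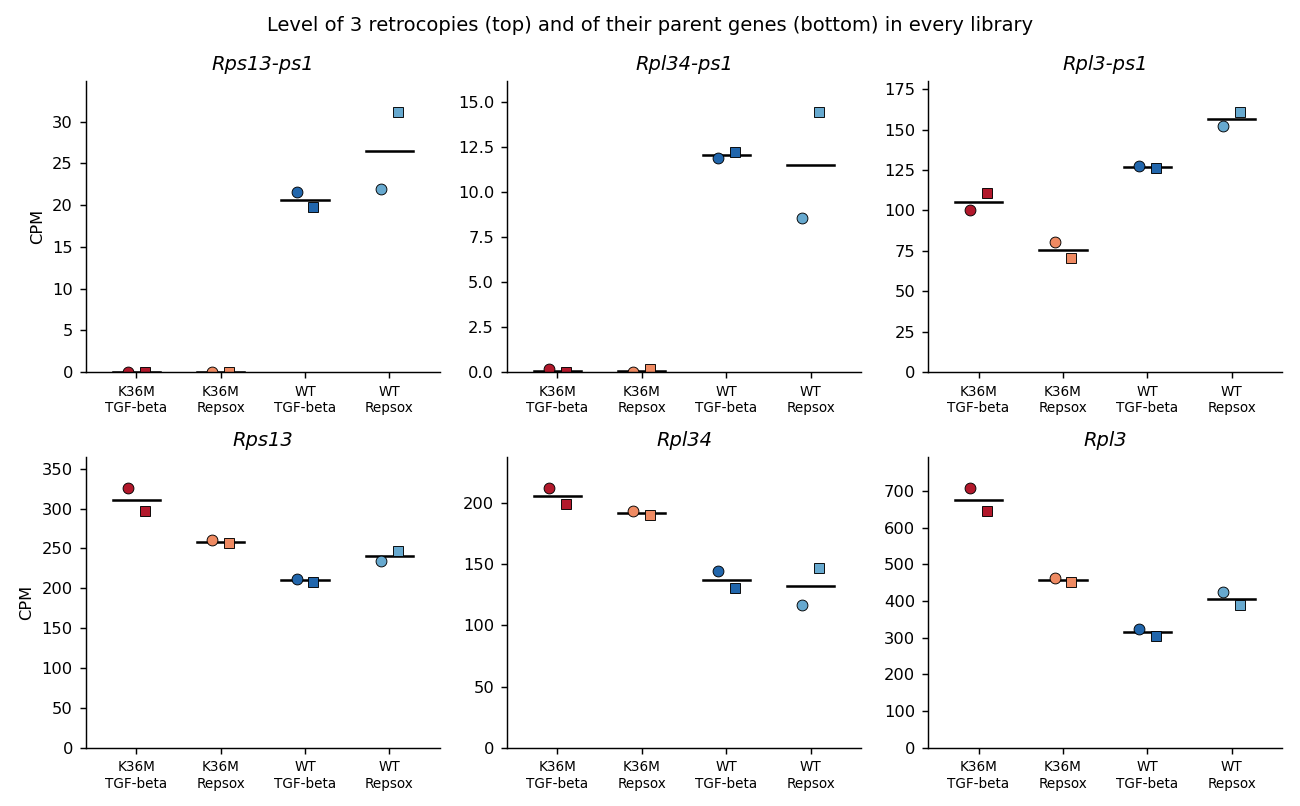
Level in CPM of 3 retrocopies (top) and of their parent genes (bottom) in each library, with y axes from 0; bars are means of 2 libraries. Rps13-ps1 and Rpl34-ps1 are at or near 0 in all 4 K36M libraries, while Rps13, Rpl34 and Rpl3 are read in every library.

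Genes that make or use ribosomes were set beside the family, from lists written from general knowledge. Of 17 translation factors whose mRNAs also carry a TOP tract, 58.8% rose and 11.8% fell in K36M against WT under TGF-beta (median log2 0.17), against 36.4% and 33.9% of all genes tested. Eif4b, which helps the initiation helicase, had 1156 and 1155 CPM in K36M, against 712 and 731 CPM in WT (log2 0.68 ± 0.06, adjusted p = 6.52e-10). Eef1g, a subunit of the elongation factor that reloads Eef1a1, had 685 and 641 CPM in K36M, against 462 and 471 CPM in WT (log2 0.51 ± 0.07, adjusted p = 1.03e-06). The 2 that fell were Pabpc1 (log2 -0.12), which binds poly(A) tails, and Tpt1 (log2 -0.24). Between media in K36M, 70.6% of the 17 rose and 0 fell under TGF-beta (median 0.32), against 24.7% and 23.6% of all genes. Of the 24 general initiation factors 33.3% rose and 33.3% fell in K36M against WT under TGF-beta, with a median log2 of 0.00. These shares were near the 36.4% and 33.9% of all genes tested.

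The genes that assemble ribosomes and process rRNA did not follow the proteins that go into them. Of 46, 0 rose and 36 fell in K36M under Repsox (78.3% lower, against 26.9% of all genes tested, median log2 -0.45), where the ribosomal protein genes had a median of -0.04. Under TGF-beta 10 rose and 17 fell in K36M (21.7% and 37.0%, against 36.4% and 33.9% of all genes tested, median -0.11). Under Repsox Dkc1, the pseudouridine synthase of box H/ACA particles, had 73.0 and 70.2 CPM in K36M, against 128 and 137 CPM in WT (log2 -0.88 ± 0.08, adjusted p = 5.23e-09). In WT 29 of the 46 fell and 2 rose under TGF-beta (63% and 4.3%, against 33.4% and 29.0% of all genes tested, median -0.33). Rrp1b (log2 -1.05) was among those that fell. In sum the list stood at 6341 ± 80.5 CPM in K36M under TGF-beta, 6104 ± 58.6 in K36M under Repsox, 6831 ± 7.87 in WT under TGF-beta and 8696 ± 122 in WT under Repsox (SD, n = 2).

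Of 13 genes of RNA polymerase I, which transcribes the large rRNAs, 1 rose and 7 fell in K36M under Repsox (7.7% and 53.8%, against 28.8% and 26.9% of all genes tested), and 4 rose and 6 fell under TGF-beta (30.8% and 46.2%, against 36.4% and 33.9%). Of the 76 genes of the mitochondrial ribosome 28.9% rose and 23.7% fell in K36M under TGF-beta, each below the share of all genes, with a median log2 of 0.03. Among genes for proteins of the cytosolic ribosome that the symbol rule misses, Fau (log2 0.60), which encodes a ubiquitin-like fusion to a small subunit protein, and Gnb2l1 (log2 0.15), the Rack1 scaffold, rose in K36M under TGF-beta. Rpl36al (log2 0.07) did not pass.

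Of 19 genes of the mTOR pathway and of TOP mRNA control, 4 rose and 7 fell in K36M under TGF-beta (21.1% and 36.8%, against 36.4% and 33.9% of all genes tested). Among inhibitors of mTOR, Deptor, Ddit4, Sesn1 (log2 0.98) and Tsc1 (log2 0.74) rose and Akt1s1 fell, while Tsc2 (log2 -0.15) and Sesn2 (log2 -0.05) did not pass. Rheb (log2 -0.60), Rictor (log2 -0.56) and Mtor (log2 -0.22) fell, and Rptor (log2 0.09) and Mlst8 (log2 0.08) did not pass. Akt1s1, which encodes the inhibitor PRAS40, had 47.7 and 49.7 CPM in K36M, against 100.3 and 93.3 CPM in WT (log2 -0.99 ± 0.09, adjusted p = 2.26e-09). Deptor, another inhibitor, had 74.2 and 80.6 CPM in K36M, against 13.8 and 15.9 CPM in WT (log2 2.38 ± 0.10, adjusted p = 3.38e-15), and Ddit4, which restrains mTOR under stress, had 278 and 263 CPM in K36M, against 86.5 and 99.4 CPM in WT (log2 1.54 ± 0.08, adjusted p = 1.8e-13). Larp1, the protein that holds TOP mRNAs, had 592 and 593 CPM in K36M, against 574 and 569 CPM in WT and did not pass (log2 0.05). Myc, whose reads can come from the OKSM transgene as well as the gene, had 187 and 184 CPM in K36M, against 577 and 570.2 CPM in WT under TGF-beta (log2 -1.63 ± 0.07, adjusted p = 3.04e-15). Of 9 genes of the MYC family and its partners 4 rose and 4 fell (44.4% each). Mycn had 14.5 and 14.6 CPM in K36M, against 2.84 and 1.94 CPM in WT (log2 2.62 ± 0.19, adjusted p = 4.8e-11). In the K36M cells under TGF-beta, then, Myc was below and Mycn above its WT level.

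Of 16 genes of the p53 response, which defects in ribosome assembly can raise, 0 rose and 13 fell in K36M under Repsox (81.2% lower, against 26.9% of all genes tested, median log2 -0.70). Under TGF-beta 5 rose and 9 fell in K36M (31.2% and 56.2%, against 36.4% and 33.9%, median -0.27), and in K36M 14 rose and 1 fell under TGF-beta (87.5% and 6.2%, against 24.7% and 23.6%, median 0.83). Cdkn1a, which encodes the cell cycle inhibitor p21, had 372 and 359.6 CPM in K36M, against 1180.3 and 1155 CPM in WT under TGF-beta (log2 -1.68 ± 0.06, adjusted p = 3.23e-16) and 146 and 156 CPM in K36M, against 457 and 442 CPM in WT under Repsox (log2 -1.58 ± 0.06, adjusted p = 4.48e-15). The WT libraries stood above the K36M libraries in both media.

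The members were also grouped by features outside expression. Genes with a pyrimidine run had a median log2 of 0.37 in K36M against WT under TGF-beta (n = 34), and genes without one 0.36 (n = 27). In the same comparison the medians were 0.42 with CCGGAAG (n = 25) and 0.33 without it (n = 36), and 0.41 for the 30 genes that hold a small nucleolar RNA gene and 0.39 for 52 that do not. Gaps were wider elsewhere: in WT under TGF-beta against Repsox the median was -0.08 with CCGGAAG and -0.20 without, and for the interaction it was 0.40 with a pyrimidine run and 0.53 without, and 0.55 with a small nucleolar RNA gene and 0.43 without. None of these gaps was tested. Genes whose exons overlap those of another listed gene had a median of 0.38 (n = 17) against 0.42 (n = 65); the strand setting of the counting was not given in the sources used here, so reads of such pairs cannot be told apart. By coding length, the 42 longer members had a median of 0.51 and the 40 shorter ones 0.31 in K36M against WT under TGF-beta, and -0.26 against -0.07 in WT under TGF-beta against Repsox. Spearman's correlation of the log2 fold change with coding length, over 82 genes read in the same libraries, was 0.34 in the first and -0.43 in the second, given as a description. Libraries 1 and 2 of WT under Repsox differed with coding length as well (Spearman 0.58 over 82 genes), and its part in these values was not tested.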

How the data were processed

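RNA-seq was measured in 8 libraries, 2 for each of 4 groups, grouped by genotype and treatment as the labels give them. The deposited values are raw read counts per gene, whole numbers that the authors made with tools that the submitters' processing notes list as STAR 2.5.0, HTSeq 0.11.2 and edgeR, on mm9. Not given in the sources used here: the role of each tool, the gene annotation, the strand setting and the treatment of reads with several matches. Libraries were made after rRNA depletion, per the labels, and held 10928302 to 15594217 counts.

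The 15789 genes that passed filterByExpr were fitted over all 8 libraries with edgeR 4.0.16 (R 4.3.3, limma 3.58.1), with TMM scaling, a quasi-likelihood test and Benjamini-Hochberg adjustment over all tested genes, called at an adjusted p below 0.05. Every adjusted p is from this edgeR fit unless DESeq2, another scaling or a left-out library is named. The fit had 4 residual and 17.5 prior degrees of freedom and a common coefficient of biological variation of 0.0702. It was tested on simulated counts. CPM use the same scaled library sizes, and ± after a log2 value is its standard error.

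Named members are the 4 largest called changes per direction in each pairwise comparison (3 for the interaction) with an average log2 CPM of at least 2, plus fixed stalk, 5S-binding and paralog members. Other members and list genes were picked for naming after their values were seen. The members and lists were chosen with earlier results of these data known. The bound for a group at 0 uses 3 counts over the group. Coordinates and coding sequences are from mm9, and promoters are from RefSeq on GRCm38.p6.

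Alternatives were DESeq2 size factors, library totals, TMM without the ribosomal protein genes, no filter, DESeq2 1.42.0, the compared groups alone, a replicate block, retrocopy counts added to their parents, and leaving out each library.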

Additional observations from a re-analysis of the deposited data

Results flagged for a closer look

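The effect of TGF-beta against Repsox differed between K36M and WT, by the interaction term of edgeR's quasi-likelihood test, for 59 ribosomal protein genes. It was positive, meaning a higher log2 fold change in K36M, for 58 (69.9%), and negative for 1 (1.2%). Of all tested genes 28.5% were positive and 22.6% negative, 51.0% in all. Values are K36M minus WT differences of log2 fold changes. In the large subunit they were 0.94 for Rpl22, 0.93 for Rpl3, 0.93 for Rpl8, 0.80 for Rpl11, 0.73 for Rpl5, 0.66 for Rpl7 and 0.57 for Rpl10. In the stalk they were 0.64 for Rplp0, 0.62 for Rplp2 and 0.32 for Rplp1. In the small subunit they were 0.93 for Rpsa, 0.92 for Rps3a, 0.81 for Rps6, 0.79 for Rps2, 0.78 for Rps9, 0.58 for Rps19, 0.52 for Rps27a, 0.49 for Rps27 and 0.42 for Rps4x. Among paralogs the value was 0.31 for Rpl7l1, -1.22 for Rpl39l and 5.49 for Rpl10l. Rpl7l1 missed the threshold in 7 of its 15 alternatives, at adjusted p = 0.0654 by DESeq2 and, by edgeR, at 0.0568 and 0.11 without library 1 or 2 of WT under TGF-beta, 0.0861 and 0.101 without library 1 or 2 of K36M under Repsox, and 0.0579 and 0.0679 without library 1 or 2 of K36M under TGF-beta. Rpl39l missed it without library 2 of K36M under TGF-beta (-0.84, adjusted p = 0.0645 by edgeR) or of WT under TGF-beta (-0.98, adjusted p = 0.0632), and Rpl10l without library 2 of WT under TGF-beta (adjusted p = 0.0555). The value of Rpl10l is a fitted one that depends on the prior count, since Rpl10l had 0 reads in WT under TGF-beta, and it is no bound.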

How the results depend on the processing

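Across the settings tried, alternative values for named genes kept their sign and side of the threshold in 1614 cases, passed it newly in 55, missed it in 53, changed sign without passing in either setting in 36 (such as Rpl39l in K36M against WT under TGF-beta, between -0.75 and 0.19) and changed sign with a pass in at least 1 setting in 5. Those 5 were Rpl3 under Repsox with retrocopies added (-0.074), Rps27l under Repsox without library 2 of WT (0.28, and -0.51 without library 1), and, on library totals, Rpl13a in K36M against WT under TGF-beta (0.12) and in WT between media (-0.031), and Rplp1 in WT between media (-0.18). Library totals moved the median log2 fold change to 0.58 in K36M against WT under TGF-beta, -0.40 between media in WT and 0.69 for the interaction; there 1 member fell in the first, and 0 rose and 71 fell in the second. With the compared groups alone 5 rose in K36M under Repsox and 4 fell under TGF-beta. Without a filter 26 fell in K36M under Repsox, and with DESeq2 size factors 4 rose in WT between media. Mean summed CPM became 33863.6 in K36M under Repsox on library totals; 31114.9, 27542.5 and 30766.6 in WT under TGF-beta with DESeq2 size factors, library totals and retrocopies added; and 34534.3, 36444.2 and 35274.8 in WT under Repsox in that order of settings. The cause was not tested.

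Leaving out 1 library gave 5 to 20 higher and 11 to 23 lower members in K36M under Repsox, 56 to 70 higher and 2 lower under TGF-beta, 1 to 6 higher and 29 to 52 lower between media in WT, 35 to 58 higher and 2 to 3 lower in K36M, and 52 to 72 positive and 0 to 3 negative interactions. Group arms left with 1 library were assumed to vary like the other groups. Deviations of same-numbered libraries correlated at -0.03 to 0.09 over 11740 genes, so no strong effect of the replicate number was seen. Whether same-numbered libraries shared a culture or batch cannot be told from these correlations. With the replicate block 10 members rose and 17 fell in K36M under Repsox, 72 and 2 under TGF-beta, 3 and 44 between media in WT, and 58 and 3 in K36M; the block ended the call of Rpl10l in K36M under Repsox, at adjusted p = 0.0566 by edgeR. Depth limited Rpl10l and Rpl3l most, each with few reads.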
